A study of Homo sapiens with 6 samples.

Results

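The 90 genes described here encode the nuclear subunits of the mitochondrial respiratory chain and of the ATP synthase, with a few isoforms and associated factors. They were chosen by name, as the rows whose symbol begins with NDUFA, NDUFB, NDUFC, NDUFS or NDUFV and a number, is SDHA, SDHB, SDHC or SDHD, or begins with UQCR, with COX and a number from 4 to 8, or with ATP5. Of 20026 gene rows kept, 37 matched complex I, 4 complex II, 9 complex III, 19 complex IV and 21 complex V, the ATP synthase. NDUFA4 and NDUFA4L2 were counted with complex IV, to which the NDUFA4 protein is now assigned. Complex I includes the read-through locus NDUFC2-KCTD14, complex III the retrogene copy UQCRHL, and complex V the read-through locus ATP5MF-PTCD1, the retrogene copy ATP5MGL and the enzyme's inhibitor ATP5IF1. NDUFAB1, CYC1 and CYCS do not match these names and are given with the other pathway genes. The subunits encoded in mitochondrial DNA had no row among those kept under the symbols searched, so no values are given for them.

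RNA was sequenced from 3 stable lines of HCT116, an established human colon carcinoma cell line. These were the control, the wild type line (over-expression of TEAD4 without mutation) and the K178R line (over-expression of TEAD4 K178R, a mutant with, in the usual notation, arginine in place of lysine). Each line had 2 libraries of total RNA, and the labels give no treatment or time point, do not describe the control construct or the promoter, and do not say whether a line is a clone or a pool. TEAD4 is a DNA-binding transcription factor at the end of the Hippo pathway. The comparisons describe how RNA levels in each TEAD4 line differed from control and how the mutant line differed from the wild type line. As each form of TEAD4 is present in a single line, its effect cannot be told apart from other differences between the lines.

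In the inner mitochondrial membrane, complex I takes electrons from NADH and complex II from succinate, and both pass them through ubiquinone to complex III, then by cytochrome c to complex IV, which reduces oxygen. Complexes I, III and IV pump protons, and complex V uses the proton gradient to make ATP. Most subunits are encoded in the nucleus, and their genes are known to be transcribed through factors such as NRF1, the ETS family factor GABPA and YY1, with ESRRA and coactivators of the PGC1 family.

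Values are FPKM, that is, fragments per length of transcript and per depth of the library. Whether the libraries of a line are separate cultures is not in the labels, so the spread on which each p-value rests may be technical only. TEAD4 read 16.6 and 17.5 FPKM in the control libraries, 86.4 and 84.4 in the wild type libraries, and 71.2 and 72.3 in the K178R libraries. Totals ran from 283195 to 305329 FPKM, and relative depth from 0.927 to 1.05 of control replicate 1, while the number of reads is unknown. Of 9 epithelial markers, 7 reached 0.5 FPKM in every library. CDX1 was listed at 0 and VIL1 at no more than 0.0294 FPKM. The summed level of the 9 was 2720 and 2675 FPKM in the control libraries, 1902 and 1850 in wild type, and 2891 and 2925 in K178R. The lower sum in wild type came from keratins, such as KRT8 (1307 and 1288 FPKM in control, 783 and 758 in wild type), while EPCAM lay between 146 and 153 FPKM in all libraries and CLDN4 read 39.5 and 40.5 FPKM in control and 51.7 and 53.8 in wild type. Of 5 fibroblast markers 1 reached 0.5 FPKM in every library, with sums of 1.53 to 1.88 FPKM in control and K178R and 3.64 and 3.78 in wild type. Of 5 leukocyte markers 1 reached it, with sums of 1.14 to 1.97 FPKM in control and K178R and 2.16 and 2.54 in wild type. The fibroblast genes COL1A2 and DCN and the leukocyte gene CD3E were listed at 0 throughout, and PTPRC at no more than 0.00622 FPKM. The part of these markers in the results below was not tested.

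The respiratory genes were abundant in all 3 lines. The filter, at least 0.5 FPKM in at least 2 libraries, left 81 of the 90 members among 11445 genes tested, and the lowest value of a tested member in any library was 3.96 FPKM (NDUFS7 in a K178R library). Control levels had a median of 61.7 FPKM and ran from 4.69 for NDUFS7 to 554 for ATP5F1E, the epsilon subunit of the central stalk of the ATP synthase. Medians by complex were 48.4 FPKM for complex I, 50.4 for II, 54.2 for III, 156 for IV and 101 for V. Both libraries of a line gave nearly the same level for most members, with a median ratio of the higher to the lower of 1.036 for control, 1.037 for wild type and 1.037 for K178R. The widest pairs were 1.18 for ATP5PD in control, 1.19 for ATP5IF1 in wild type and 1.18 for UQCRHL in K178R.

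The 9 members that were not tested were mainly isoforms known from other tissues or conditions. COX4I2, COX6A2, COX7A1 and COX7B2 were listed at 0 in every library, whereas their counterparts COX4I1, COX6A1, COX7A2 and COX7B lay between 64.7 and 436 FPKM. The highest values of the other complex IV isoforms were 0.650 FPKM for COX6B2, 0.411 for COX8C and 0.210 for NDUFA4L2. In complex V, ATP5S, the coupling factor B, reached 0.444 FPKM and ATP5MGL 0.0788. In no line did such a complex IV isoform exceed 0.650 FPKM.

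The wild type TEAD4 line held more RNA of these genes than the control line. Of 81 tested members, 60 rose, spread over all 5 complexes, and 0 fell (limma, Benjamini-Hochberg adjusted p below 0.05 over all genes), with 62 higher and 0 lower at an unadjusted p below 0.05. That is 74.1% of the members higher, where 37.6% of all tested genes were higher and 12.2% lower. The median change was 0.20 on the log2(FPKM + 1) scale for the members and 0.09 for all tested genes, and the ratio of mean FPKM ran from 0.955 for NDUFS3 to 1.41 for NDUFA2 with a median of 1.15. Summed FPKM of the 90 genes was 8148 ± 9.39 in the control line, 9232 ± 109 in wild type and 7893 ± 91.8 in K178R (SD, n = 2 libraries). As a share of all FPKM, that was 2.77% ± 0.00121, 3.04% ± 0.00778 and 2.78% ± 0.0155. In bulk RNA, more RNA per cell and more cells with a high level cannot be told apart.

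Because more genes were called higher than lower, calls in all members, in complexes and their parts, and in the other lists are also counted after median-of-ratios scaling. In this comparison, scaling brings the median change of all genes to 0.01. After it 38 members were higher and 1, NDUFS3, was lower, with a median of 0.10, while 24.8% of all genes were higher and 22.3% lower. Of the 60 members called without scaling, 38 were also called under each of the 14 alternatives run, and 42 when any 1 library was left out. Calls lost without some library included NDUFS1, SDHD, UQCRB, UQCRHL, COX5A, COX5B, COX7A2L, COX8A and ATP5F1C.

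**Figure D1:**
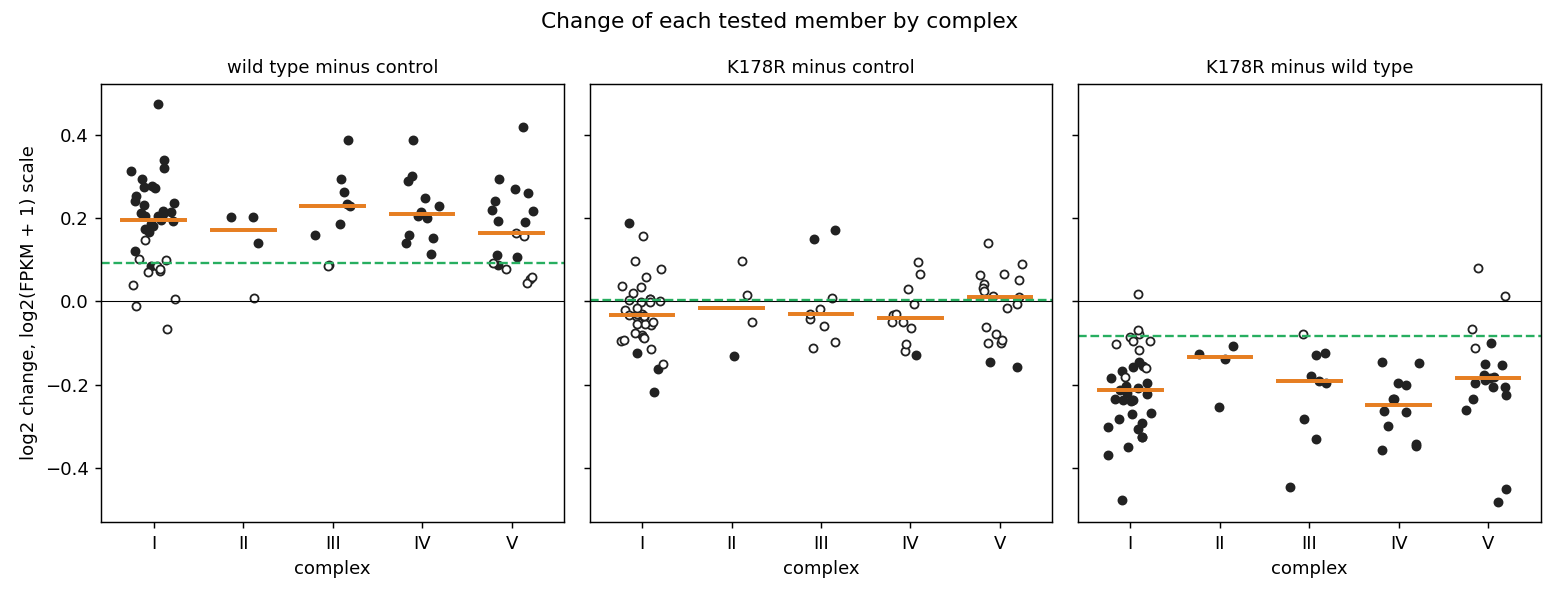
Log2 change of each tested member in each comparison, on the log2(FPKM + 1) scale, with each point 1 gene, filled where called, the orange line at the complex median and the dashed green line at the median of all tested genes. Wild type minus control points lie almost all above 0 in every complex (median 0.20), K178R minus control points lie around 0 (median -0.03) and K178R minus wild type points almost all below 0 (median -0.20).

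The K178R line stood near the control line. Of the 81 members, 3 were higher (NDUFA6, UQCR11 and UQCRC2) and 7 lower (ATP5F1B, ATP5MF, COX4I1, NDUFB10, NDUFB9, NDUFS3 and SDHA), or 3.70% and 8.64%, where 11.7% of all genes were higher and 11.1% lower, shares no smaller than the members' own. The median change was -0.03, against 0.00 for all genes, and the ratio of mean FPKM ran from 0.860 for NDUFB10 to 1.14 for NDUFA6. After median-of-ratios scaling 3 were higher and 9 lower, beside 11.0% and 11.7% of all genes. Of the calls made without scaling, UQCRC2 and ATP5F1B were the ones made under each of the 14 alternatives. Without control replicate 1, 1 of the 7 lower calls was kept, and without control replicate 2, 1 of the 3 higher calls. Leaving out 1 library ended the calls of NDUFA6 (control replicate 2 or K178R replicate 1), UQCR11 (control replicate 2 or either K178R library), NDUFB10 (control replicate 1 or K178R replicate 1), NDUFB9 and NDUFS3 (control replicate 1 or either K178R library) and SDHA (any of these 4 libraries).

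In the direct comparison, which shares the wild type libraries with the first and the K178R libraries with the second, 66 members were lower in the K178R line than in the wild type line and 0 higher (limma, Benjamini-Hochberg), with 72 lower and 0 higher at an unadjusted p below 0.05. That is 81.5% of the members lower, where 34.5% of all genes were lower and 10.4% higher. The median change was -0.20, against -0.08 for all genes, and the ratio of mean FPKM ran from 0.708 for NDUFA2 to 1.06 for ATP5F1D. After scaling, 44 members were lower and 1, ATP5F1D, higher, with a median of -0.11, beside 21.9% and 19.8% of all genes. Of the 66, 42 were called under each of the 14 alternatives and 49 when any 1 library was left out.

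**Figure D2:**
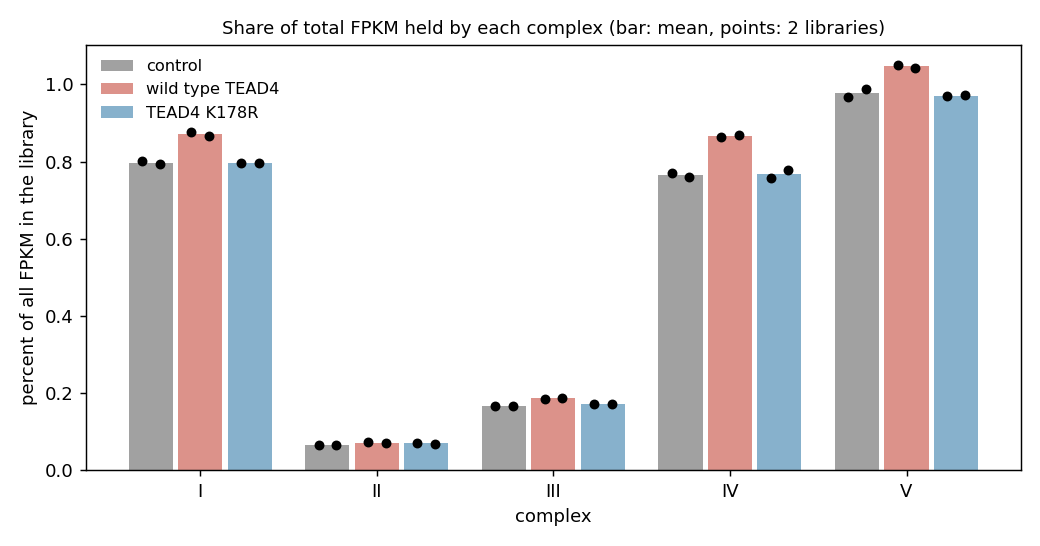
Share of all FPKM taken by the members of each complex, in percent, with a bar at the mean of each line and 1 point per library. In each of the 5 complexes both wild type libraries lie above both control and both K178R libraries.

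Promoters are shown for the members with the largest rise in wild type in complexes I, III, IV and V, NDUFA2, UQCRH, COX6A1 and ATP5MC1, whose values follow, so that sequence and level can be read together. RefSeq windows of 300 bases, 250 before to 50 after the annotated start in GRCh38.p14, matched 72 of the 90 members, 4 of them by another symbol. The searched words, on both strands, were GCGCATGCG (bound by NRF1), CCGGAAG (ETS family, such as GABPA), AAGATGGCG (YY1) and GGAATG (TEAD family), and no word lies within another. The 250 bases before the start are printed 5′ to 3′ on the gene's strand, with matches in capitals. NDUFA2 lies on the minus strand (chr5:140647631-140647880), and UQCRH (chr1:46303448-46303697), COX6A1 (chr12:120437863-120438112) and ATP5MC1 (chr17:48892537-48892786) lie on the plus strand.
NDUFA2: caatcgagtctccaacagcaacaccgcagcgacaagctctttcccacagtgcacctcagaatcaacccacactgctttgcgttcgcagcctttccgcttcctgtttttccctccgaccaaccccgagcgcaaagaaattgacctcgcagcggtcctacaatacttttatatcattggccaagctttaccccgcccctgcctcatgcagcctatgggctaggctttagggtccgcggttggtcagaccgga
UQCRH: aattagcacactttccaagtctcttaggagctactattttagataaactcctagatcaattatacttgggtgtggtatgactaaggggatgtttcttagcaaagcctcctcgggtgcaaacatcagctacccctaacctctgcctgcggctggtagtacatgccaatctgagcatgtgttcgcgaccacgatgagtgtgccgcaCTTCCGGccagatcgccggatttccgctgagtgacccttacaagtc
COX6A1: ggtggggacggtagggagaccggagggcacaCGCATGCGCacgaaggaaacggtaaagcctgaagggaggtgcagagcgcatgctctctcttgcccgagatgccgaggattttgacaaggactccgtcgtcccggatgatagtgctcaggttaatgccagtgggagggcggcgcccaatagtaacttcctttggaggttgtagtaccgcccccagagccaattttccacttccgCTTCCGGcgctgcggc
ATP5MC1: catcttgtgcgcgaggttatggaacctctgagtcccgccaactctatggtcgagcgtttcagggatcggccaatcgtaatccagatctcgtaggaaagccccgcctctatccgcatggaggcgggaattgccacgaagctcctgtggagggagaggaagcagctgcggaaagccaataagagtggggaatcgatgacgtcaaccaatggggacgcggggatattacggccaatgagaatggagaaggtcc
The capitals in UQCRH are the ETS word on the opposite strand, beginning 46 bases before the start. In COX6A1 they are the NRF1 word, 219 bases before the start, and the ETS word, 16 bases before it, both on the opposite strand. None of the 4 words lay in the window of NDUFA2 or ATP5MC1. These 4 genes were chosen for their rise, and whether the words go with it was not tested.

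Over the 72 members with a window, the NRF1 word occurred in 10 (13.9%, where 2.10% of all 27305 windows hold it), the ETS word in 20 (27.8%, against 10.7%) and the YY1 word in 8 (11.1%, against 1.85%). The TEAD word occurred in 7 (9.72%, against 14.0%). The 27305 windows were not limited to genes tested here, so these shares do not compare members with other expressed genes. Among the 51 members called higher in wild type, the shares were 15.7% for NRF1, 29.4% for ETS, 11.8% for YY1 and 11.8% for TEAD. Among the 16 tested members not called higher, they were 12.5%, 31.2%, 12.5% and 6.25%. The TEAD word stood in 6 of the 51 and 1 of the 16, and these sets were not tested against each other. A match describes letters in the window, not a bound site.

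Complex I, the NADH dehydrogenase, has 37 members, all of them tested. In the wild type line 26 rose and 0 fell (17 and 1 after scaling), and in the K178R line 27 were lower than in wild type (20 after scaling). Counts by complex and part stand beside 37.6% of all genes higher in wild type than in control (24.8% after scaling). For K178R below wild type the share of all genes was 34.5% (21.9% after scaling). Summed FPKM of complex I was 2343 ± 19.9 in the control line, 2646 ± 45.9 in wild type and 2263 ± 15.1 in K178R (SD, n = 2). NDUFA2, a small supernumerary subunit, led the rises, with 23.0 and 23.6 FPKM in the control libraries, 30.3 and 35.5 in the wild type libraries, and 23.5 and 23.0 in the K178R libraries. Both wild type libraries stood apart from the other 4 (log2 0.48, SE 0.07, limma adjusted p = 0.00107, and 0.38 after scaling). K178R levels of NDUFA2 overlapped those of control (log2 -0.00) and lay below wild type (log2 -0.48, SE 0.07, limma adjusted p = 0.00137).

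The 7 catalytic core subunits of complex I carry the flavin, the iron-sulfur clusters and the ubiquinone site. In the wild type line 5 of them rose (3 rose and 1 fell after scaling). NDUFV1, which binds NADH and the flavin, read 62.3 and 61.1 FPKM in the control libraries, 69.9 and 70.8 in the wild type libraries, and 61.2 and 62.6 in the K178R libraries, with both wild type libraries above the other 4 (log2 0.19, SE 0.03, limma adjusted p = 0.00131). NDUFS1, which carries iron-sulfur clusters, changed by 0.12 and lost its call after scaling (0.03, limma adjusted p = 0.582). NDUFS7, the least abundant tested member, did not pass, at 4.58 and 4.80 FPKM in the control libraries, 4.75 and 5.34 in the wild type libraries, and 4.29 and 3.96 in the K178R libraries (log2 0.09, SE 0.06, limma adjusted p = 0.300).

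NDUFS3, also a core subunit, did not share the rise. It read 86.2 and 81.3 FPKM in the control libraries, 81.2 and 78.7 in the wild type libraries, and 74.1 and 75.4 in the K178R libraries. The higher wild type library lay just under the lower control library, and the change did not pass (log2 -0.07, SE 0.03, limma adjusted p = 0.156). NDUFS3 was the only member called lower in wild type after median-of-ratios scaling (-0.16, limma adjusted p = 0.00607), and also after upper-quartile scaling and with the length trend removed. In K178R it was below both control libraries (log2 -0.16, SE 0.03, limma adjusted p = 0.0160).

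Among the 29 supernumerary subunits of complex I, which surround the core and stabilise it, 21 rose in the wild type line (14 after scaling). NDUFB5, in the membrane arm, read 60.3 and 60.5 FPKM in the control libraries, 74.3 and 72.5 in the wild type libraries, and 58.8 and 57.9 in the K178R libraries, with wild type above all 4 other libraries (log2 0.28, SE 0.03, limma adjusted p = 2.3e-04). NDUFB8, a membrane arm subunit often used as a marker of assembled complex I, changed by 0.21 (limma adjusted p = 0.00129) and NDUFA9, at the joint of the arms, by 0.23 (limma adjusted p = 0.00277). Abundant members took part unevenly, since NDUFA1 rose from 189.6 ± 1.39 to 237 ± 8.18 FPKM (SD, n = 2; log2 0.32, SE 0.04, limma adjusted p = 4.1e-04), while NDUFB9, called without wild type replicate 2 (276 ± 6.80 to 290.2 ± 9.11 FPKM) and NDUFB10 (142 ± 3.83 to 143 ± 7.92 FPKM) did not pass.

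NDUFA6 and NDUFB10 had the largest called K178R changes of complex I in each direction. NDUFA6, which sits at the matrix arm, read 49.2 and 48.7 FPKM in the control libraries, 61.0 and 57.9 in the wild type libraries, and 56.9 and 54.9 in the K178R libraries. Both lines with extra TEAD4 lay above control for NDUFA6, by 0.27 in wild type and 0.19 in K178R (log2 0.19, SE 0.03, limma adjusted p = 0.00862), and it was not called between those lines (log2 -0.09, limma adjusted p = 0.0776) except without wild type replicate 2. NDUFB10, a membrane arm subunit, read 145 and 139.5 FPKM in the control libraries, 148 and 137 in the wild type libraries, and 120.1 and 124 in the K178R libraries, so that K178R lay below the other 4 libraries (log2 -0.22, SE 0.04, limma adjusted p = 0.00999) while wild type overlapped control.

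Complex II, succinate dehydrogenase, has 4 subunits and no mitochondrially encoded one. In the wild type line 3 of them rose, or 75%, beside 37.6% of all genes. After scaling 1 was higher, or 25%, near the 24.8% of all genes. SDHB, the iron-sulfur subunit, read 75.8 and 75.5 FPKM in the control libraries, 89.4 and 85.2 in the wild type libraries, and 81.1 and 80.8 in the K178R libraries. Wild type was the highest, K178R intermediate and control the lowest, with no overlap (log2 0.20, SE 0.03, limma adjusted p = 0.00130), although the K178R difference from control did not pass (log2 0.10, SE 0.03, limma adjusted p = 0.0542) but was called without either wild type library, after upper-quartile scaling and with the length trend removed. After scaling, SDHB was still called higher in wild type than in control (0.10, limma adjusted p = 0.0215). It was then not called between K178R and wild type (-0.02, limma adjusted p = 0.702). SDHC and SDHD, the membrane anchors that bind ubiquinone, changed by 0.20 and 0.14 in wild type, and by 0.11 and 0.04 after scaling, where neither passed.

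SDHA, the flavin subunit that oxidises succinate, stood apart from the other 3. It read 16.3 and 16.6 FPKM in the control libraries, 16.6 and 16.5 in the wild type libraries, and 15.0 and 14.9 in the K178R libraries. Wild type and control overlapped (log2 0.01, SE 0.03, limma adjusted p = 0.862), while K178R lay below both (log2 -0.13, SE 0.03, limma adjusted p = 0.0286 against control). All 4 complex II genes were lower in K178R than in wild type, the most SDHC (log2 -0.25, SE 0.04, limma adjusted p = 0.00204), the only one still called after scaling (log2 -0.16). Without K178R replicate 2 the other 3 were not called.

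Complex III, which passes electrons from ubiquinol to cytochrome c, had 7 of 9 members higher in wild type (5 after scaling) and 8 below wild type in the K178R line (4 after scaling). UQCRH, the hinge protein at the cytochrome c side, rose most, with 80.5 and 78.4 FPKM in the control libraries, 100.3 and 108 in the wild type libraries, and 81.0 and 71.7 in the K178R libraries. Control and K178R libraries overlapped and lay below wild type (log2 0.39, SE 0.06, limma adjusted p = 0.00157 against control, 0.29 after scaling). Its retrogene copy UQCRHL read 15.6 ± 1.13 FPKM in control and 18.5 ± 0.776 in wild type (SD, n = 2), but the sources used here do not say how reads shared between the copies were counted.

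UQCRC2, a core protein of complex III, was the single member called higher in both lines under each alternative run. Its levels were 61.4 and 64.1 FPKM in the control libraries, 77.7 and 76.5 in the wild type libraries, and 71.3 and 70.2 in the K178R libraries. Wild type was highest and K178R lay between it and control without overlap (log2 0.29, SE 0.03, limma adjusted p = 3.0e-04 in wild type; log2 0.17, SE 0.03, limma adjusted p = 0.00716 in K178R). After scaling, UQCRC2 was not called between K178R and wild type (-0.03, limma adjusted p = 0.441). The partner core protein UQCRC1 rose in wild type (log2 0.19, limma adjusted p = 0.00108) but stood at control level in K178R (log2 0.01). UQCRFS1, the Rieske iron-sulfur protein that takes electrons from ubiquinol, did not pass in wild type (log2 0.09, limma adjusted p = 0.0771) unless a K178R library was left out. UQCRB, a ubiquinone-binding small subunit, rose by 0.16 and lost its call after scaling (0.07).

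Complex IV, cytochrome c oxidase, was the complex in which every one of the 12 tested members rose in wild type, 7 of them also after scaling, and every one was below wild type in the K178R line, 10 also after scaling. Summed FPKM was 2249 ± 25.8 in the control line, 2627 ± 15.1 in wild type and 2182 ± 54.5 in K178R (SD, n = 2). COX6A1, the common form of a regulatory subunit whose muscle form COX6A2 was at 0, read 326 and 334 FPKM in the control libraries, 426 and 436 in the wild type libraries, and 331 and 342 in the K178R libraries. This was the largest gain in FPKM of any member, and both wild type libraries were well above the other 4 (log2 0.39, SE 0.03, limma adjusted p = 6.3e-05, and 0.29 after scaling).

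Other complex IV subunits rose less. COX6C rose by 0.30 (limma adjusted p = 3.9e-04) and NDUFA4 by 0.29 (limma adjusted p = 4.0e-04), both also called after scaling. COX7C, the most abundant complex IV subunit, rose from 505 ± 0.906 to 581 ± 21.0 FPKM (SD, n = 2; log2 0.20, SE 0.04, limma adjusted p = 0.00563) and was not called after scaling (0.10). COX5A and COX5B, which flank the core on the matrix side, had the smallest rises, 0.14 and 0.11, and neither was called after scaling. COX7A2L, an assembly factor of supercomplexes, rose by 0.15 and was not called after scaling (0.05). COX8A lost its wild type call without any 1 of the 4 control and wild type libraries, COX5A and COX7A2L without control replicate 2 or wild type replicate 2, and COX5B without control replicate 1. COX5A also lost its call in K178R against wild type without wild type replicate 2 or K178R replicate 2.

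COX4I1, the isoform of subunit 4 found in most tissues, differed from control in both lines and in opposite directions. Its levels were 72.9 and 69.0 FPKM in the control libraries, 83.2 and 81.5 in the wild type libraries, and 64.9 and 64.7 in the K178R libraries. The 3 lines did not overlap, with wild type highest and K178R lowest (log2 0.21, SE 0.03, limma adjusted p = 0.00154 in wild type; log2 -0.13, SE 0.03, limma adjusted p = 0.0286 in K178R). The K178R call was lost, among other settings, without control replicate 1 or without either K178R library.

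**Figure D3:**
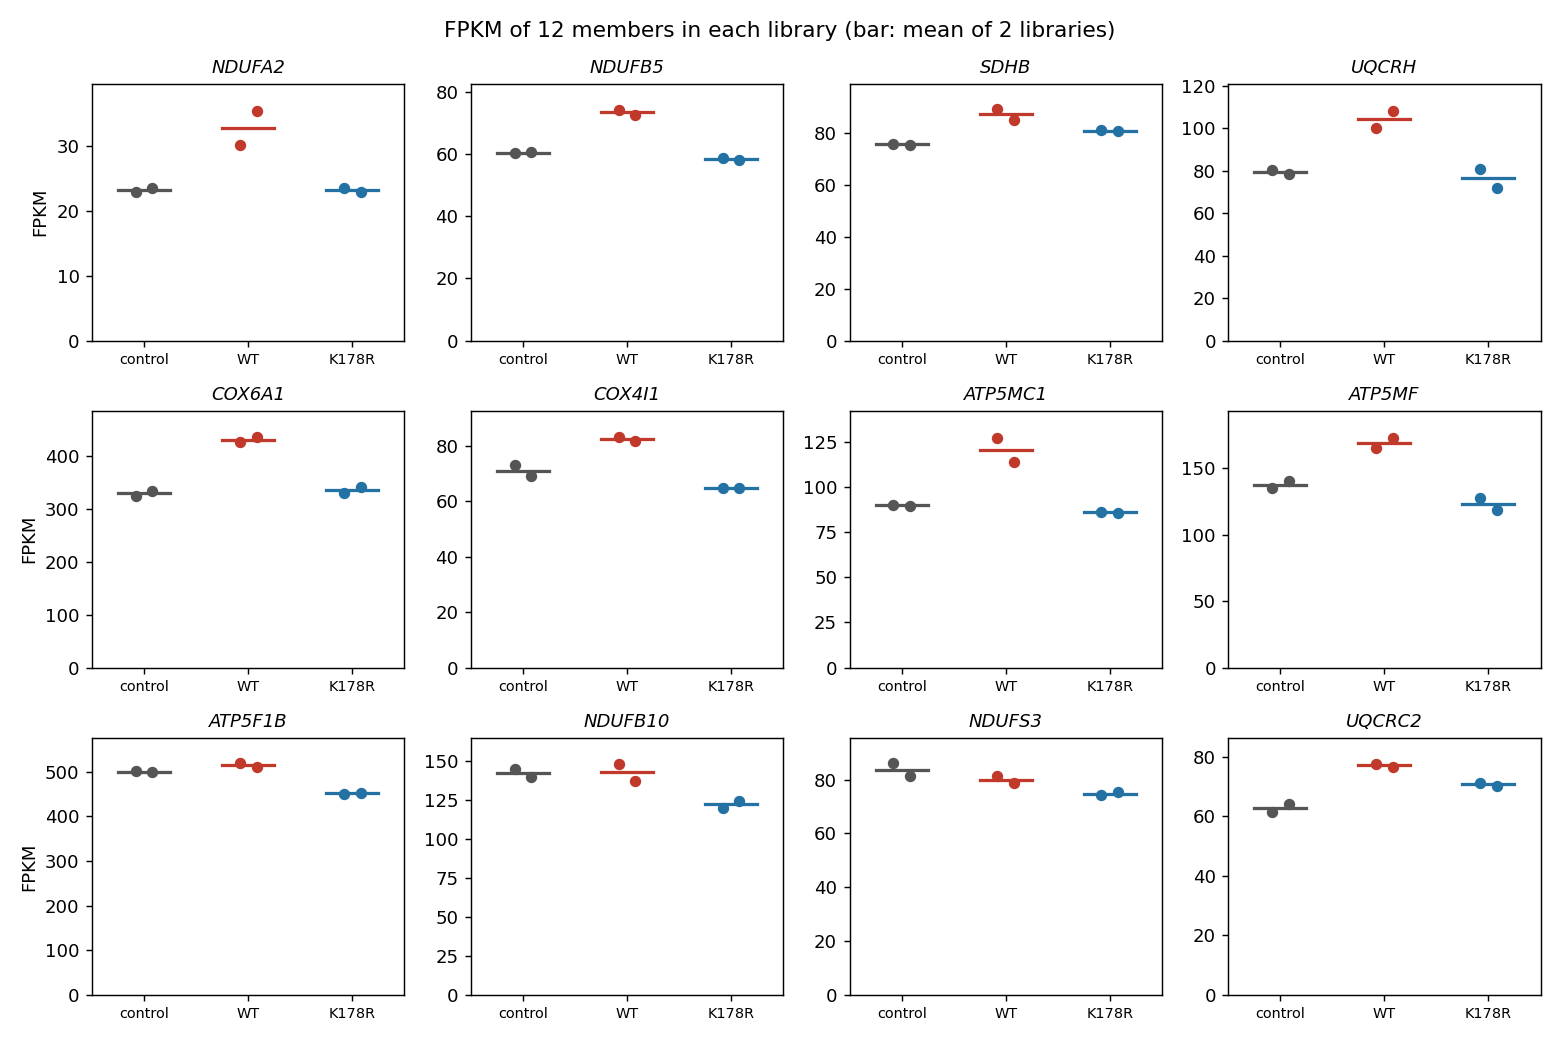
FPKM of 12 members in each of the 6 libraries, with 1 panel per gene on an axis from 0, 1 point per library and a bar at the mean of each line. NDUFA2, UQCRH, COX6A1 and ATP5MC1 show wild type libraries above all others, and UQCRC2 shows K178R between control and wild type.

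Complex V joins a catalytic F1 head, a rotating c ring and a peripheral stalk, and 12 of its 19 tested members rose in wild type (8 after scaling) while 15 were lower in K178R than in wild type (9 after scaling). Of the 5 genes of the F1 head and central stalk, 3 rose, or 60%, beside 37.6% of all genes. After scaling 1 was higher, or 20%, below the 24.8% of all genes. The scaled median change was 0.006 for these 5 genes and 0.010 for all genes. ATP5F1B, the catalytic beta subunit and one of the most abundant members, read 501 and 499 FPKM in the control libraries, 520.3 and 511 in the wild type libraries, and 451 and 454 in the K178R libraries. Its wild type change did not pass (log2 0.04, SE 0.02, limma adjusted p = 0.116), whereas both K178R libraries were below the other 4, a difference called under each alternative run (log2 -0.15, SE 0.02, limma adjusted p = 0.00293).

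The partner subunit ATP5F1A, the alpha subunit, rose from 191 ± 2.75 to 218 ± 1.02 FPKM (SD, n = 2; log2 0.19, SE 0.02, limma adjusted p = 7.3e-04) and stood at 197 ± 3.48 in K178R. ATP5F1C, the gamma subunit of the central stalk, changed by 0.11 in wild type and lost its call after scaling (0.01). ATP5F1D, the delta subunit, read 103 and 99.2 FPKM in the control libraries, 109.9 and 101 in the wild type libraries, and 106 and 117 in the K178R libraries. It was called in no comparison of the values as deposited. After median-of-ratios scaling it was higher in K178R than in wild type (0.17, limma adjusted p = 0.0413), and with the length trend removed it was called higher in K178R than in control.

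The c ring is built from the same mature protein encoded by 3 genes. ATP5MC1, the most abundant of them, read 90.1 and 89.4 FPKM in the control libraries, 127 and 114 in the wild type libraries, and 86.0 and 85.7 in the K178R libraries, with wild type far above the other 4 libraries (log2 0.42, SE 0.05, limma adjusted p = 4.2e-04). ATP5MC2 also rose, from 21.6 ± 1.16 to 26.2 ± 0.0499 FPKM (SD, n = 2; log2 0.27, SE 0.05, limma adjusted p = 0.00256), whereas ATP5MC3 did not pass, at 22.4 ± 0.551 and 23.3 ± 0.0165 FPKM (log2 0.05, limma adjusted p = 0.243). The summed level of the 3 was 134 ± 2.22 FPKM in the control line, 170.0 ± 9.30 in wild type and 128 ± 1.72 in K178R, and ATP5MC1 made up 67.1% ± 0.736, 70.8% ± 1.56 and 66.9% ± 0.745 of it. ATP5MC3 made up 16.8% ± 0.134, 13.7% ± 0.741 and 16.2% ± 0.243 (SD, n = 2).

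Of the 4 genes of the peripheral stalk, which holds the head against rotation, 3 rose (2 after scaling). ATP5PO, the link of this stalk to the head, went from 181 ± 8.66 to 211 ± 4.98 FPKM (SD, n = 2; log2 0.22, SE 0.04, limma adjusted p = 0.00216). ATP5MF, a small membrane subunit, had the largest called fall of complex V in K178R against control. It read 135 and 140.0 FPKM in the control libraries, 165 and 173 in the wild type libraries, and 128 and 119 in the K178R libraries, so that the 3 lines did not overlap (log2 0.29, SE 0.04, limma adjusted p = 0.00113 in wild type; log2 -0.16, SE 0.04, limma adjusted p = 0.0323 in K178R). The K178R call was lost, among other settings, without either control library or without K178R replicate 2. ATP5IF1, the protein that blocks ATP hydrolysis by the enzyme, was not called in any comparison of the main fit. It read 16.2 and 16.9 FPKM in the control libraries, 17.1 and 20.3 in the wild type libraries, and 16.3 and 18.1 in the K178R libraries. Among the alternatives over all 6 libraries, it was called higher in wild type than in control with a replicate block. Without wild type replicate 1 it was called higher in wild type than in control, and K178R was called below wild type.

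Short and abundant transcripts are common among these genes, so changes were set beside those of genes of like length and level. Of the 81 members, 34 have a median coding transcript under 700 bases in GENCODE 29. In that range the median wild type change was 0.20 for members and 0.10 for the other genes. By level, members of 50 to 100 FPKM changed by a median of 0.21 where all genes there changed by 0.01. There 21 of 27 members and 31.9% of all genes were called higher. After median-of-ratios scaling 19 were higher and 1 lower, beside 17.3% and 48.5% of all genes there. At 100 FPKM and more the median was 0.16 against 0.03. There 18 of 24 members and 35.3% of all genes were called higher. After scaling 8 were higher and 0 lower, beside 13.9% and 47.7%. In K178R minus control, the other genes under 700 bases had a median of -0.06, and members there also -0.06. Genes of 100 FPKM and more had -0.08 in K178R, and members there -0.07. In K178R minus wild type, the other genes under 700 bases had a median of -0.17, and members there -0.23. Of all genes in that range, 51.5% were called lower. At 100 FPKM and more, the median was -0.09 for all genes and -0.21 for members. There 51.9% of all genes and 22 of 24 members were called lower. After a trend with length was removed from each library, 54 members were higher and 1, NDUFS3, lower in wild type than in control (median 0.17), and in K178R minus control 9 were higher and 3 lower (median 0.02). With that trend removed, 50 members were lower and 0 higher in K178R minus wild type (median -0.15). Across the 81 members, the wild type change had a Pearson r of 0.0424 with the log2 control level, a description over genes measured in the same 6 libraries.

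**Figure D4:**
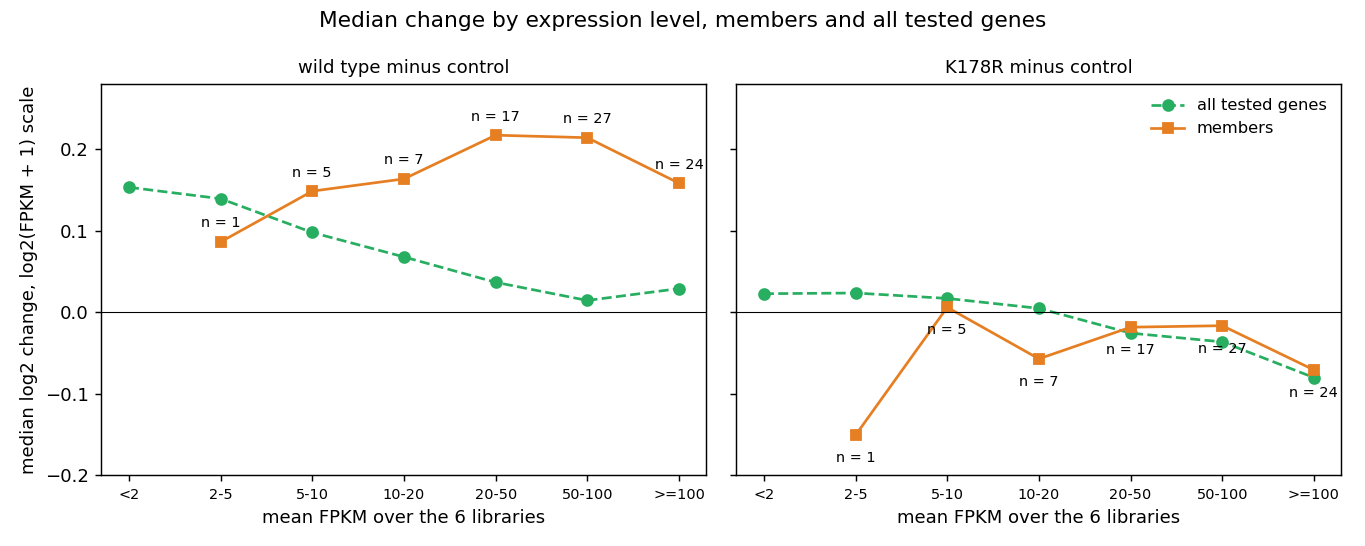
Median change on the log2(FPKM + 1) scale for all tested genes and for members, in bins of mean FPKM over the 6 libraries, with the number of members in each bin. In wild type minus control the members lie above all genes in each bin from 5 FPKM on, and in K178R minus control they lie near all genes in the bins from 20 FPKM on.

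For the other genes of the pathway, counts are set beside the shares of all genes, which in wild type minus control were 37.6% higher and 12.2% lower (24.8% and 22.3% after scaling). Among 16 other subunits and electron carriers, 6 rose and 1 fell in wild type, or 37.5% and 6.25% (3 and 4, or 18.8% and 25%, after scaling), a share of rises near that of all genes. NDUFAB1, the acyl carrier protein of complex I, rose by 0.17 (limma adjusted p = 0.00351), while CYC1, the cytochrome c1 of complex III, changed by 0.07 (limma adjusted p = 0.227) and CYCS, cytochrome c, by -0.05 (limma adjusted p = 0.150). After scaling CYCS was lower (-0.15, limma adjusted p = 0.00354). COQ4 and COQ9, of ubiquinone synthesis, rose by 0.34 and 0.26, and COQ2, an early enzyme of that route, fell (log2 -0.31).

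Assembly factors, which help build the complexes without staying in them, were split. Of 18 for complex I, 4 rose and 3 fell in wild type, or 22.2% and 16.7% (2 and 5, or 11.1% and 27.8%, after scaling). NDUFAF8 rose by 0.29, while NDUFAF3 (-0.22) and ACAD9 (-0.17) fell. Of 39 for complexes II to V, 14 rose and 3 fell, or 35.9% and 7.69% (7 and 5, or 17.9% and 12.8%, after scaling), again near the share of all genes or below it for rises. COX14, for complex IV, read 9.35 and 8.58 FPKM in the control libraries, 12.1 and 12.7 in the wild type libraries, and 9.07 and 9.77 in the K178R libraries (log2 0.43, SE 0.06, limma adjusted p = 8.3e-04). LYRM7, which handles the Rieske protein, rose by 0.37 and UQCC1, for complex III, by 0.27, whereas its partner UQCC2 fell (-0.23). OXA1L, the insertase of the inner membrane, rose in both lines, by 0.17 in wild type and 0.20 in K178R, though in wild type not after scaling (0.07).

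In the list of the tricarboxylic acid cycle with pyruvate dehydrogenase and pyruvate carboxylase, 8 of 18 genes rose and 0 fell in wild type, or 44.4% higher (5 and 5, or 27.8% each, after scaling), close to the 37.6% and 24.8% of all genes. PDHB rose by 0.28, SUCLG1 by 0.27 and OGDH by 0.32, while CS, citrate synthase, changed by 0.04 (limma adjusted p = 0.217). DLAT, among the 5 called lower after scaling (-0.12, limma adjusted p = 0.0135), changed by -0.02 in the values as deposited.

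Of 20 tested regulators of mitochondrial biogenesis and of the mitochondrial genome, 4 were higher and 5 lower in wild type. That is 20% and 25%, beside 37.6% and 12.2% of all genes. After scaling 1 was higher and 9 lower, or 5% and 45%, beside 24.8% and 22.3% of all genes. PPRC1, a coactivator of the PGC1 family, read 29.2 and 28.7 FPKM in the control libraries, 24.0 and 23.6 in the wild type libraries, and 28.5 and 28.2 in the K178R libraries (log2 -0.27, SE 0.03, limma adjusted p = 4.6e-04). PPARGC1B, of the same family, was instead higher in both lines, by 0.20 in wild type (limma adjusted p = 0.0180, not called after scaling) and 0.32 in K178R (limma adjusted p = 0.00577). ESRRA, the nuclear receptor that works with these coactivators, read 17.0 and 17.8 FPKM in the control libraries, 21.5 and 21.8 in the wild type libraries, and 18.2 and 18.1 in the K178R libraries (log2 0.30, SE 0.04, limma adjusted p = 5.2e-04). Wild type was thus the lowest line for PPRC1 and the highest for ESRRA, with no overlap in either. POLG (-0.25), SSBP1 (-0.18), POLRMT (-0.17) and TFB2M (-0.15), which serve the copying or transcription of mitochondrial DNA, fell. TEFM, a factor of mitochondrial transcript elongation, and TWNK, the helicase of mitochondrial DNA, rose by 0.24 and 0.12, and neither was called after scaling. NRF1 (log2 -0.09), GABPA (-0.02), YY1 (-0.04) and TFAM (0.06) did not pass, although after scaling NRF1 (-0.18) and YY1 (-0.13) were called lower. PPARGC1A and ESRRG were listed at 0 in every library.

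In K178R minus control, where 11.7% of all genes were higher and 11.1% lower, 1 of the 16 other subunits and carriers was higher and 1 lower, 2 and 2 of the 18 complex I assembly factors, 3 and 1 of the 39 for complexes II to V, 2 and 0 of the 18 in the tricarboxylic acid cycle list, and 1 and 1 of the 20 in the biogenesis list. After scaling, beside 11.0% and 11.7% of all genes, these counts were 1 and 1, 1 and 2, 3 and 1, 2 and 0, and 1 and 2. In K178R minus wild type, where 10.4% of all genes were higher and 34.5% lower, the counts were 1 and 6, 4 and 5, 1 and 15, 0 and 5, and 4 and 2 in the same order. After scaling, beside 19.8% and 21.9% of all genes, they were 2 and 4, 4 and 3, 9 and 7, 5 and 1, and 7 and 1. In K178R minus wild type, the direction with more calls thus depended on the scaling in the tricarboxylic acid cycle list and in both lists of assembly factors. PPRC1 was higher in K178R than in wild type (0.24) and ESRRA lower (-0.25).

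**Figure D5:**
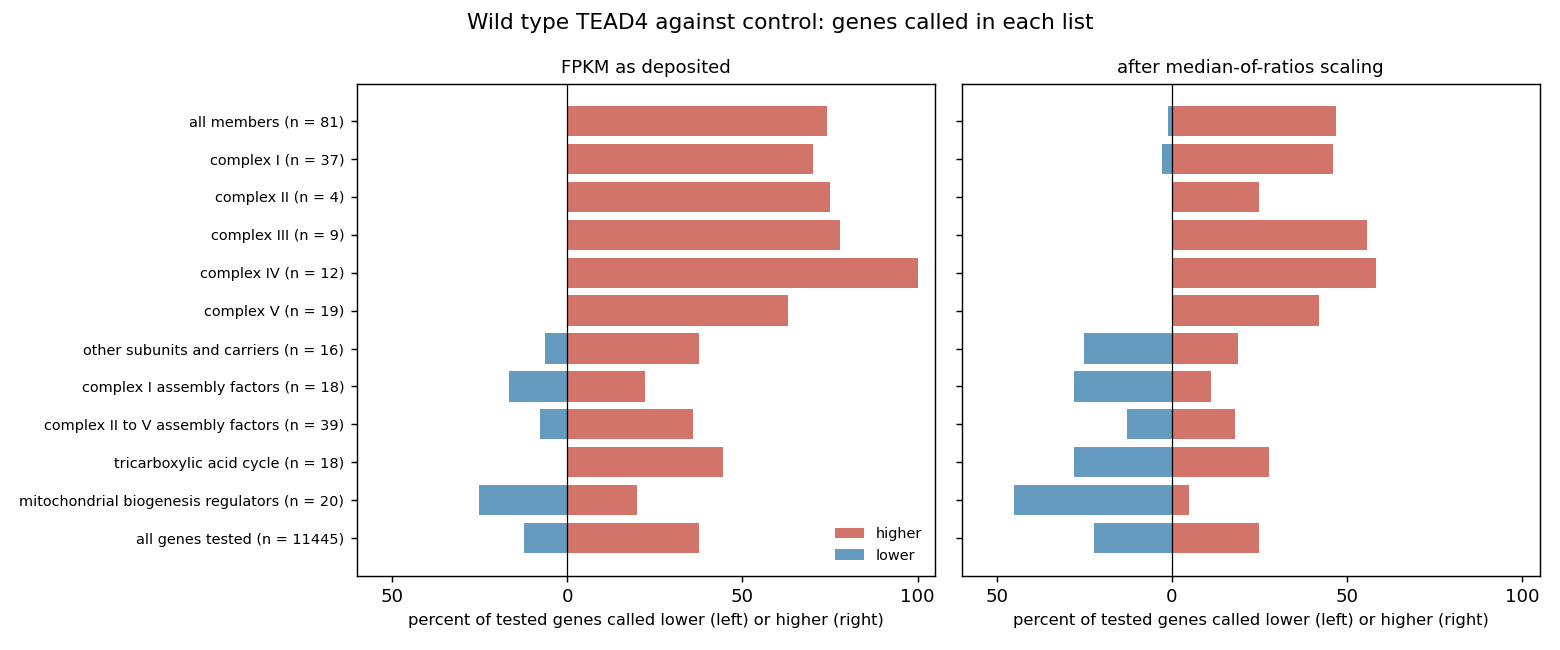
Percent of the tested genes of each list called higher (right, red) and lower (left, blue) in wild type minus control, for FPKM as deposited and after median-of-ratios scaling. All members reach 74.1% higher and complex IV 100%, where all 11445 genes reach 37.6%, and after scaling the members reach 46.9% and all genes 24.8%.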

How the data were processed

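RNA sequencing of 6 libraries, 2 per stable line, was analysed. The authors deposited 1 table of FPKM values per library. Per the submitters' processing notes, Bowtie 0.12.2 and the build hg18 were used. For the FPKM program, its annotation, shared reads and strand, the handling is not given in the sources used here. Libraries were grouped by title, and for wild type replicate 2 the genotype label names TEAD5.

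Of 20030 rows, 4 with a repeated identifier were left out. Tested genes reached 0.5 FPKM or more in 2 or more libraries. limma 3.58.1 (R 4.3.3) with trend was fitted to log2(FPKM + 1), which understates changes of low values, over all 6 libraries with group means as coefficients. Tests were two-sided with Benjamini-Hochberg adjustment over 11445 genes and a threshold of 0.05. The fit was tested on simulated data. Alternatives were median-of-ratios and upper-quartile scaling, a pseudocount of 0.1, no filter, no trend, a replicate block, averaged control libraries, removal of a length trend, and leaving out each library. Transcript lengths came from GENCODE 29 by symbol, for 11327 of the tested genes. Depth relative to control replicate 1 was taken from values under 0.1 FPKM.

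The members and lists were chosen with earlier results of these data known. In each comparison and complex the members with the largest called rise and fall, members called against most of their complex, core subunits and paralogues were named. Other members and genes of the other lists were picked as examples after their values were seen.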

Additional observations from a re-analysis of the deposited data

How the results depend on the processing

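Direction held for the wild type comparisons under every alternative run, while counts and medians moved. With median-of-ratios scaling, wild type minus control gave 38 members higher and 1 lower (median log2 0.10), K178R minus control a median of -0.039, and K178R minus wild type 1 higher (median -0.11). Upper-quartile scaling gave 1 lower and a median of 0.13 in wild type minus control and -0.13 in K178R minus wild type. With the length trend removed, the medians were 0.17 with 1 lower, 0.018 with 9 higher and 3 lower, and -0.15, in the order wild type minus control, K178R minus control and K178R minus wild type, so that K178R minus control reversed. In K178R minus control, 4 were lower without the filter, 2 lower and 1 higher with averaged controls, and 2 lower without trend. Leaving out each library gave medians of 0.19 to 0.21, -0.031 to -0.018 and -0.21 to -0.19 in the same order, and in K178R minus control 2 to 8 members lower and 1 to 4 higher. The cause of these shifts was not tested. With a replicate block, 59 members were higher in wild type minus control, 4 higher and 6 lower in K178R minus control, and 68 lower in K178R minus wild type. Correlations of same-numbered deviations were 0.0095, -0.031 and 0.032 over 9952 genes, so the numbers were not taken to pair the libraries. The number of reads is unknown, so no counting error can be given, and 2 libraries per line limit the precision of every value.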
